A study of Mus musculus with 7 samples.

Results

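The genes described here are the cyclins, cyclin-dependent kinases (CDKs), E2F transcription factors and pocket proteins that drive and restrain the cell cycle, with their close regulators. They came from a list of 50 named genes. Of these, 48 were measured by a probeset (a group of array probes summarised to a single value) annotated with exactly 1 gene symbol, among 22180 genes measured in that way. Where a gene had several such probesets, the one with the highest mean over all arrays was used. Ccnf and Pkmyt1 had no such probeset and were not analysed here. The RNA came from G1E cells, an immature erythroid line of mouse origin without functional GATA1. The control group carried Lockd WT (3 arrays) and the other group a Lockd deletion made with CRISPR/Cas9 (4 arrays). The deletion takes away DNA together with the transcript. The design text speaks of clones, but no label ties an array to a clone or a culture, so p-values reflect the spread among these 7 samples alone, and that spread could be technical.

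In cycling cells, D cyclins bind CDK4 and CDK6 and start to phosphorylate the pocket proteins, which frees E2F factors to switch on genes of DNA synthesis. Cyclins E and A with CDK2, and cyclins A and B with CDK1, then carry the cell through S phase and into mitosis. CDK inhibitors hold these kinases back. Those of the Cip/Kip family (p21, p27 and p57) bind several cyclin-CDK complexes, and those of the INK4 family bind CDK4 and CDK6. Erythroid precursors divide several times before they leave the cell cycle, and p27 is among the proteins that accumulate as they do so. The comparison of control with deletion arrays therefore bears on whether these genes changed in cells with a lower p27 mRNA.

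The series as a whole was closely alike between arrays, with correlations of 0.9925 to 0.9963, and control replicate 2 lay far from the rest on the main axis of variation. Lockd, the targeted long non-coding RNA, read 7.80 to 8.04 on control and 4.17 to 5.15 on deletion arrays in log2 RMA units, the scale used throughout, and fell by 3.02 (limma adjusted p = 0.0162). Erythroid and progenitor markers were high in both groups, among them Gata2 at means of 12.46 and 12.42, Kit at 11.74 and 11.67 and Klf1 at 10.52 and 10.51 in control and deletion cells. Of the 14 measured, 2 had an unadjusted limma p under 0.05, where 4.61% of all genes did. They were Tfrc at -0.17 (SE 0.06), whose groups did not overlap, and Lmo2 at 0.31 (SE 0.13), whose groups did. Neither passed (limma adjusted p = 0.999 for both). Lymphoid markers were low, with no measured member of 6 above the median level of all genes. Of the 10 mast cell and basophil genes 3 were above that median, and the mean level of that list was 5.45 to 6.08 on control and 5.30 to 5.72 on deletion arrays. Within it Tph1, a serotonin synthesis gene of mast cells, read 9.35 to 10.39 on control and 7.25 to 8.37 on deletion arrays, a difference of -2.03 (SE 0.29) that did not pass (limma adjusted p = 0.516). The others above that median, Cpa3 and Ms4a2, varied widely within both groups, which overlapped. Cpa3 read 9.53 to 11.97 on control and 9.88 to 11.48 on deletion arrays, a difference of -0.696 (SE 0.621). Ms4a2 read 7.55 to 9.99 on control and 8.07 to 10.05 on deletion arrays, a difference of 0.097 (SE 0.644). Control replicate 2 was the lowest array for both. Of 5 megakaryocyte genes 2, and of 7 myeloid genes 1, were above the median level of all genes. In these lists Gp9 at -0.33 (SE 0.11) and Mpo at 0.24 (SE 0.08) had groups that did not overlap, where 5.19% of all genes did not. Gp9 was above the median level and Mpo was not, and neither passed. The part of these other cell types' genes in the values below was not tested.

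Cdkn1b, which encodes p27, fell by 1.14 (SE 0.10, 95% interval -1.37 to -0.91), a change of -54.7%. Control replicates 1 to 3 gave 9.30, 9.17 and 9.06, and deletion replicates 1 to 4 gave 7.89, 8.25, 7.98 and 8.03, so the groups were far apart. Arrays are listed in this order throughout. Its limma adjusted p, with Benjamini-Hochberg adjustment over 23521 probesets, was 0.0251. Leaving out any array but deletion replicate 2 raised that adjusted p to between 0.0941 and 0.189, while the difference stayed at -1.20 to -1.08. With deletion replicate 2 left out it was -1.21 (limma adjusted p = 0.0342). An exact two-sided permutation test over the 35 ways to divide the arrays gave p = 0.0571 with the smaller tail doubled and p = 0.0286 by the size of the difference, each the smallest its form can give here. In bulk RNA, fewer cells with a transcript and less transcript per cell cannot be told apart. This fall is the yardstick against which the 48 genes are read.

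Of the 48 genes, 0 passed the test in limma in either direction, where 0.00902% of all genes did. At an unadjusted limma p under 0.05 there were also 0, against 4.61% of all genes and 3.38% of the 11090 genes above the median level. The adjusted p-values all lay between 0.9993 and 0.9994. Values were higher in deletion cells for 25 genes and lower for 23, where 52.2% of all genes were higher, and the median difference was 0.0031 beside 0.0054 over all genes. The differences ran from -0.20 for Cdkn2d to 0.17 for Cdkn1c. The members were measured more tightly than most genes, with a median SE of 0.07 against 0.09 over all genes, and 47 of the 48 lay above the median level. The plot of differences sets each gene with its interval beside Cdkn1b.

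**Figure D1:**
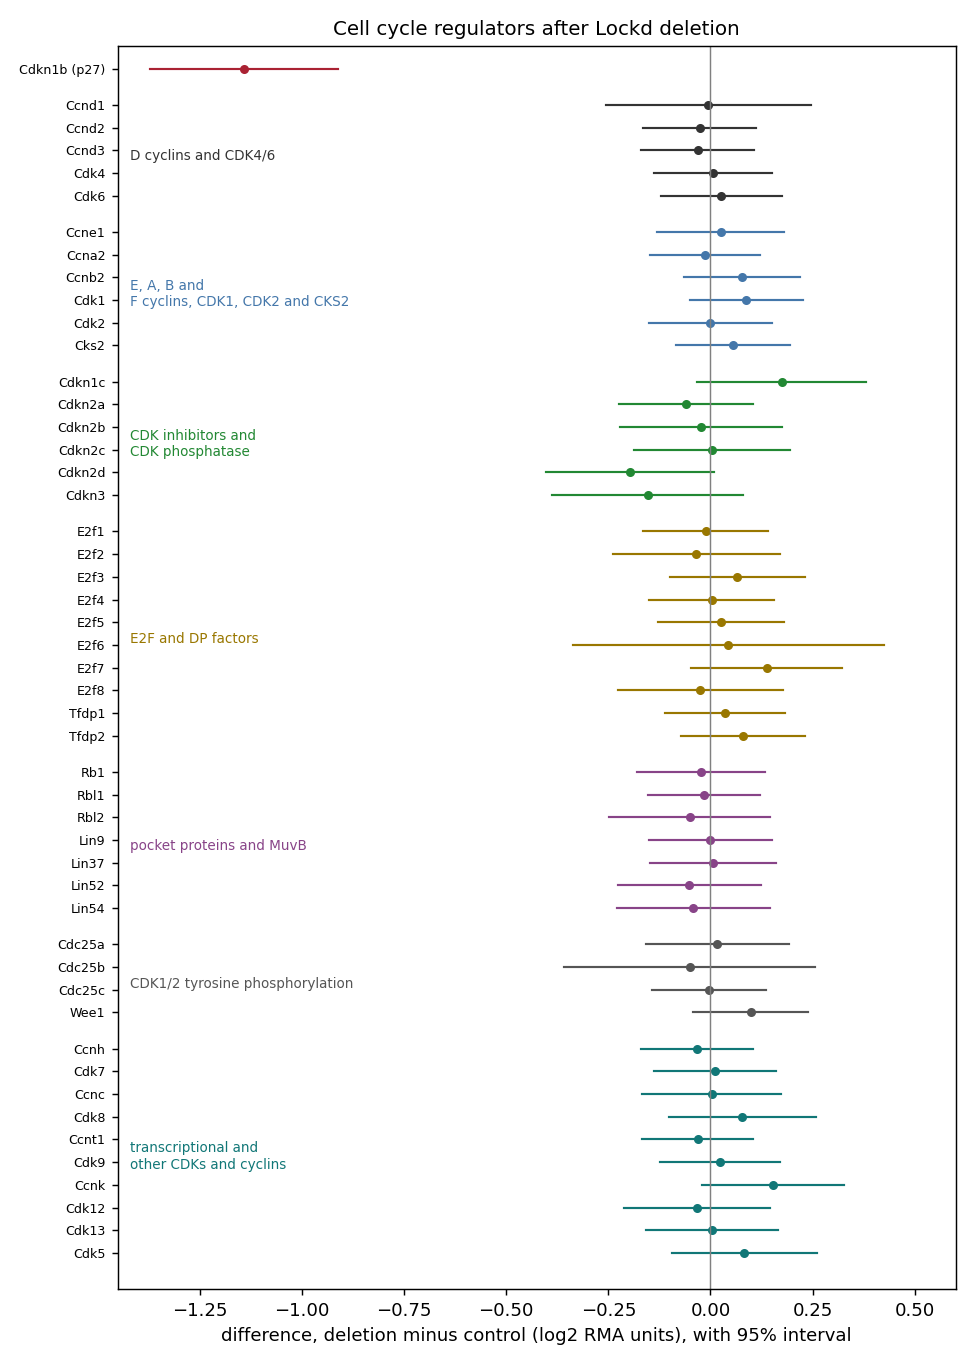
Difference between deletion and control arrays, in log2 RMA units, for Cdkn1b and the 48 measured genes in blocks by role; points are differences from limma and lines their 95% intervals (3 control and 4 deletion arrays). The intervals of the 48 genes all cross 0 and lie between -0.40 and 0.42, to the right of the interval of Cdkn1b at -1.37 to -0.91.

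The intervals bound, gene by gene, what these arrays could have missed. They hold for the spread among these 7 samples, which could be technical, and make no allowance for the number of genes. Their ends lay between -0.40 and 0.42 over the 48 genes, that is, between a change of -24.3% (Cdkn2d) and one of 34.2% (E2f6) on the RMA scale. No interval reached that of Cdkn1b. The bound is weaker for dim probesets, where RMA compresses differences. The 5 dimmest in control cells were Ccnd1 at 5.66, Cdkn1c at 5.98, Cdkn2a at 6.48, Cdkn2b at 6.76 and Cdc25b at 6.78, beside a median of 5.72 over all genes.

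The CDK inhibitors are the closest relatives of p27 by function, and 0 of them passed the test. Cdkn1c encodes p57, a Cip/Kip inhibitor that shares its CDK-binding domain with p27. It read 5.97, 6.14 and 5.82 on the control arrays and 6.15, 6.14, 6.26 and 6.05 on the deletion arrays. Control replicate 2 lay among the deletion arrays, and the other 2 control arrays lay below all 4 of them. Control arrays averaged 5.98 ± 0.16 (SD, n = 3) and deletion arrays 6.15 ± 0.08 (SD, n = 4). The difference of 0.17 (SE 0.09, 95% interval -0.03 to 0.38), or 12.8%, did not pass (limma adjusted p = 0.999). It was 0.26 without control replicate 2, where its unadjusted p was under 0.05 and its adjusted p 0.938, and 0.10 without control replicate 3. Cdkn1a encodes p21, the remaining Cip/Kip inhibitor, and belongs to a separate list of pathway genes. It read 11.94, 11.74 and 12.01 on control and 11.65, 11.95, 11.84 and 11.88 on deletion arrays, with overlapping groups and a difference of -0.07 (SE 0.10, 95% interval -0.29 to 0.16).

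Of the INK4 inhibitors, Cdkn2d, which encodes p19Ink4d, differed most. It read 8.45, 8.21 and 8.39 on control and 8.13, 8.31, 8.04 and 8.12 on deletion arrays. Deletion replicate 2 lay inside the control range and the other 3 deletion arrays below it. The difference was -0.20 (SE 0.09, 95% interval -0.40 to 0.0078), the smallest unadjusted limma p of the 48 genes at 0.0574, with an adjusted p of 0.999. That unadjusted p was under 0.05 with a trended, robust variance prior, with array weights, and without control replicate 2 or deletion replicate 2, and the adjusted p stayed at 0.772 or more in every alternative. Like Cdkn1b it was lower in deletion cells, by a much smaller amount.

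Cdkn2c, which encodes p18Ink4c, read 9.42, 9.55 and 9.73 on control and 9.56, 9.52, 9.61 and 9.59 on deletion arrays. The deletion arrays lay inside the control range, and the difference was 0.0037 (SE 0.08). Cdkn2b, the p15Ink4b gene, read 6.89, 6.59 and 6.81 on control and 6.80, 6.79, 6.68 and 6.68 on deletion arrays, a difference of -0.02 (SE 0.09). Cdkn2a encodes both p16Ink4a and p19Arf from alternative first exons, which its single probeset value does not separate. It read 6.53, 6.40 and 6.51 on control and 6.45, 6.31, 6.44 and 6.49 on deletion arrays, a difference of -0.06 (SE 0.07). Cdkn3 is a phosphatase that removes the activating phosphate of CDKs. It read 8.20, 8.33 and 8.47 on control and 8.23, 8.26, 8.28 and 7.96 on deletion arrays, a difference of -0.15 (SE 0.10). Deletion replicate 4 was set apart from the other deletion arrays, and the difference was -0.08 without it. The median over the inhibitors with Cdkn3 was -0.04, with 4 of 6 lower.

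**Figure D2:**
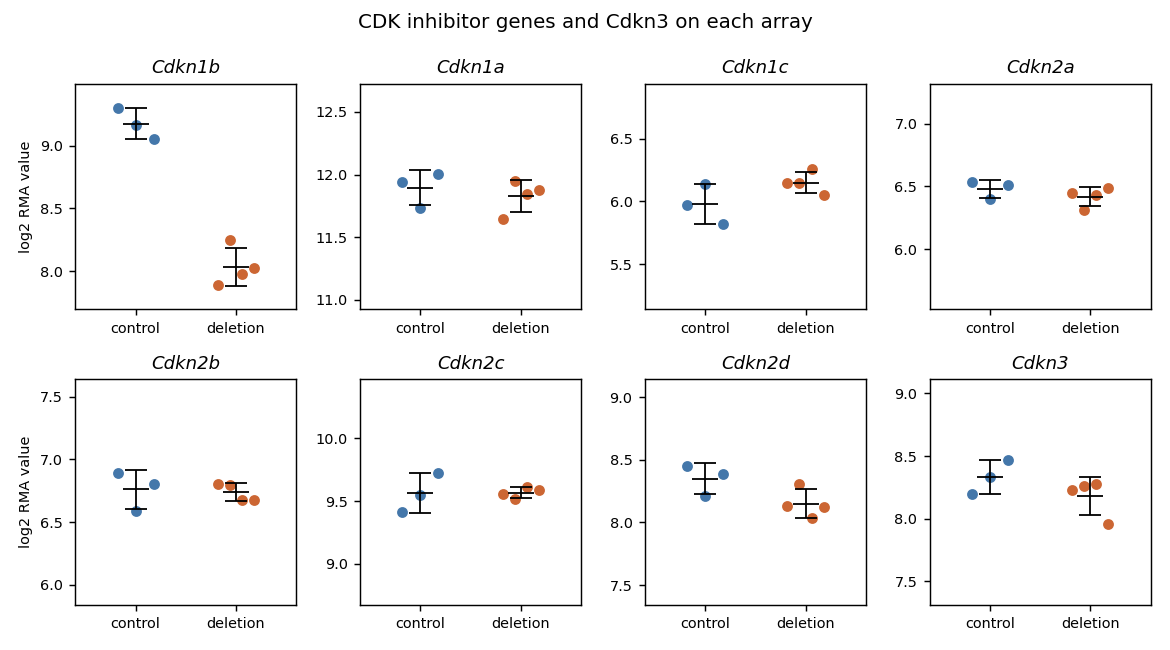
Log2 RMA value on each array (points; 3 control, 4 deletion) for Cdkn1b, its relatives Cdkn1a and Cdkn1c, the INK4 genes and Cdkn3, with the group mean and SD as bars; every panel has the same span, and levels of different genes are not comparable. The groups are apart for Cdkn1b, at 9.06 to 9.30 against 7.89 to 8.25, and overlap in the other 7 panels.

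The D cyclins and their kinases, the targets of the INK4 inhibitors, differed by -0.03 to 0.03, and 0 of 5 passed the test. Ccnd2 encodes cyclin D2, and it is the 1 gene of the 48 on chromosome 6 with Cdkn1b. It read 12.33, 12.27 and 12.28 on control and 12.25, 12.31, 12.30 and 12.22 on deletion arrays, a difference of -0.03 (SE 0.06, 95% interval -0.17 to 0.11). Ccnd3, the cyclin D3 gene, read 10.63, 10.69 and 10.73 on control and 10.61, 10.68, 10.68 and 10.65 on deletion arrays, a difference of -0.03 (SE 0.06). Both genes overlapped between the groups over a range of 0.12 or less on all 7 arrays.

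Ccnd1, the cyclin D1 gene, was dim and more variable. It read 5.75, 5.42 and 5.81 on control and 5.81, 5.64, 5.52 and 5.65 on deletion arrays, a difference of -0.0048 (SE 0.11), which turned from -0.12 without control replicate 2 to 0.07 without control replicate 3. Cdk4 read 12.31, 12.38 and 12.39 on control and 12.41, 12.33, 12.41 and 12.32 on deletion arrays. Cdk6 read 11.78, 11.85 and 11.83 on control and 11.85, 11.90, 11.88 and 11.76 on deletion arrays. The differences of both kinases, 0.0064 (SE 0.06) and 0.03 (SE 0.07), were smaller than their SE.

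Among the cyclins and kinases of S phase and mitosis, Ccne1 (cyclin E1) differed by 0.03 (SE 0.07), Ccna2 (cyclin A2) by -0.01 (SE 0.06) and Cdk2 by -0.0006 (SE 0.07). Cdk2 and its cyclins E1 and A2 are direct targets of p27. Their intervals lay between -0.15 and 0.18. Cks2, a small subunit that docks phosphorylated substrates to CDKs, differed by 0.06 (SE 0.06). Its 4 probesets included 3 with identical values on all arrays, at a mean of 11.60, and 1 at 9.80 with a difference of 0.03. This leaves its level uncertain, and the reason for the identical values was not tested.

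The groups did not overlap for 4 of the 48 genes, Cdk1, Ccnb2, Wee1 and Ccnk, all higher in deletion cells, where 5.19% of all genes did not overlap 2.65% with higher and 2.54% with lower values in deletion cells. Cdk1 encodes the mitotic kinase. It read 10.145, 10.211 and 10.140 on control and 10.273, 10.215, 10.290 and 10.233 on deletion arrays, a difference of 0.09 (SE 0.06, limma adjusted p = 0.999). Ccnb2, its partner cyclin B2, read 10.540, 10.452 and 10.581 on control and 10.624, 10.605, 10.582 and 10.591 on deletion arrays, a difference of 0.08 (SE 0.06, limma adjusted p = 0.999). The highest control and the lowest deletion array were 0.0048 apart for Cdk1 and 0.0011 for Ccnb2.

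Wee1 encodes the kinase that holds CDK1 inactive by tyrosine phosphorylation. It read 10.090, 10.121 and 10.152 on control and 10.221, 10.164, 10.278 and 10.214 on deletion arrays, a difference of 0.10 (SE 0.06, limma adjusted p = 0.999). Ccnk, cyclin K, partners with CDK12 and CDK13 in transcription elongation. It read 11.889, 11.791 and 11.851 on control and 11.929, 12.061, 11.890 and 12.107 on deletion arrays, a difference of 0.15 (SE 0.08, limma adjusted p = 0.999). Its groups were 0.0013 apart and those of Wee1 0.012. Over the 15 alternatives the differences of these 4 genes ran from 0.04 for Ccnb2 without control replicate 2 to 0.19 for Ccnk without deletion replicate 3, and without overlap no left-out array can turn their sign. The count of 4 depended on the scaling. It was 3 with array medians subtracted (Cks2, Wee1 and Ccnk, all higher), where 4.95% of all genes did not overlap, and 1 after another quantile normalization (Cdk1), where 5.43% did not.

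**Figure D3:**
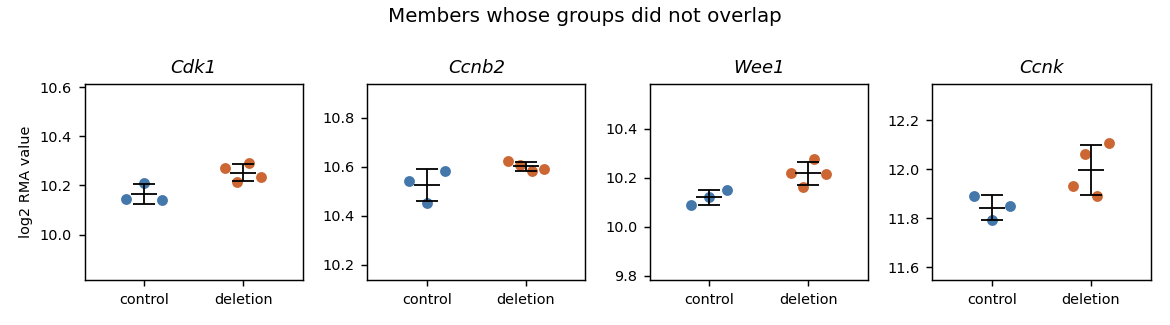
Log2 RMA value on each array (points) for the 4 genes whose control (3 arrays) and deletion (4 arrays) values did not overlap, with the group mean and SD as bars; every panel has the same span. The groups lie next to each other, with gaps of 0.0048 for Cdk1, 0.0011 for Ccnb2, 0.012 for Wee1 and 0.0013 for Ccnk.

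The promoters of Cdk1 and Ccnb2 are shown because both genes are textbook targets of the MuvB complex, which binds the cell cycle genes homology region (CHR), and because their values lay on the same side. E2f7 is shown as the E2F gene with the largest difference. The sequences are from RefSeq on the build GRCm38.p6, 250 bases before to 50 after the annotated start, 5′ to 3′ on the strand of the gene. They lie at chr10:69352863-69353162 on the minus strand for Cdk1, chr9:70421505-70421804 on the minus strand for Ccnb2 and chr10:110745189-110745488 on the plus strand for E2f7. Capitals mark matches to the E2F-type motifs TTTCCCGC, TTTCGCGC, TTTGCCGC and TTTGGCGC and to the CHR-type motif TTTGAA, searched on both strands. No E2F-type match overlapped a CHR-type match.
Cdk1: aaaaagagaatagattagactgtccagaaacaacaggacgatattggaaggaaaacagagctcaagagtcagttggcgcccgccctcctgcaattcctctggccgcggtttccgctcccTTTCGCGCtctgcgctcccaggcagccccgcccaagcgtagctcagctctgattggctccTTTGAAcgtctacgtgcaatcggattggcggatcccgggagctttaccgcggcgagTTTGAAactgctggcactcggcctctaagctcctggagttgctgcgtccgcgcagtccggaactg
Ccnb2: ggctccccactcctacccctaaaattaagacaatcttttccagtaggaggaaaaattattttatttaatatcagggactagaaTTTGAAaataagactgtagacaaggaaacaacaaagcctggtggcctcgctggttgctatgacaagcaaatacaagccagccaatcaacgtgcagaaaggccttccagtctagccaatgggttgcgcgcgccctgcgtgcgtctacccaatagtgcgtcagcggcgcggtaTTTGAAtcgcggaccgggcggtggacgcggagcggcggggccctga
E2f7: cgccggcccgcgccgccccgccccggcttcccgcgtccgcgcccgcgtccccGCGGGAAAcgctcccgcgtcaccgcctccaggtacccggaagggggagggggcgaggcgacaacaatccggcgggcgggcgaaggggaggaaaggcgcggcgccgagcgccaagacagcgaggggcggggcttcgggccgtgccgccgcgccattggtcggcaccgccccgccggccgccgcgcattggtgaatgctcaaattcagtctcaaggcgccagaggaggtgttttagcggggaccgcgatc

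In the Cdk1 window an E2F-type match began at position -131 from the start site and CHR-type matches at -71 and -15. In the Ccnb2 window, which held no E2F-type match, CHR-type matches began at -167 and 5. In the E2f7 window an E2F-type match to the other strand began at -198. Of the other genes without overlap, Ccnk had a window with no match of either type, and Wee1 had no window. Windows were found for 37 of the 50 listed genes, 8 of them with 2 windows. An E2F-type motif was present for 10 of the 37, or 27.03%, against 2.605% of 27025 genes of the table, and the CHR-type motif for 11, or 29.73%, against 20.23%. Many of the listed genes are known E2F targets, so their share describes the list and not the deletion. The 10 measured genes with an E2F-type match had a median difference of 0.0083 and the 26 without one 0.0037, and the medians were -0.02 for the 10 measured genes with a CHR-type match and 0.0051 for the 26 without. A match describes letters in the window and is no measured binding.

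Of the E2F factors, the activators E2f1, E2f2 and E2f3 differed by -0.01 (SE 0.07), -0.03 (SE 0.09) and 0.07 (SE 0.07). E2f1 read 8.86 to 8.93 on control and 8.82 to 8.98 on deletion arrays, so the deletion arrays enclosed the control range. E2f4 and E2f5, which act mostly as repressors with the pocket proteins, differed by 0.0035 (SE 0.07) and 0.03 (SE 0.07). E2f7 and E2f8 are atypical repressors that bind DNA without a DP partner and damp E2F targets late in S phase. E2f7 read 8.51, 8.41 and 8.46 on control and 8.61, 8.76, 8.51 and 8.50 on deletion arrays. Deletion replicates 1 to 3 lay above the control range and replicate 4 just inside it, and the difference was 0.14 (SE 0.08, 95% interval -0.05 to 0.32, limma adjusted p = 0.999). Without deletion replicate 2, the highest array, it was 0.08. E2f8 differed by -0.02 (SE 0.09).

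E2f6, a repressor that acts with Polycomb proteins and not with pocket proteins, varied most of all 48 genes. It read 8.98, 8.49 and 8.94 on control and 8.94, 8.72, 9.17 and 8.56 on deletion arrays, a pooled SD of 0.27 where the median over the 48 genes was 0.06. The spread lay within both groups, with control replicate 2 and deletion replicate 4 lowest. The difference of 0.04 (SE 0.17) was -0.11 without control replicate 2 and 0.14 without deletion replicate 4. The DP partners Tfdp1 and Tfdp2, which E2F factors need to bind DNA, differed by 0.04 (SE 0.06) and 0.08 (SE 0.07). Over the 10 E2F and DP genes 7 were higher, with a median of 0.03, and 0 passed the test.

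The pocket proteins restrain E2F and are the substrates that cyclin-CDK complexes inactivate. Rb1, the retinoblastoma gene, read 11.76 to 11.90 on control and 11.73 to 11.88 on deletion arrays, a difference of -0.02 (SE 0.07), and its dimmer probeset, at a mean of 6.62, differed by -0.06 (SE 0.09). Rbl1 (p107) and Rbl2 (p130), which join E2F4 in the DREAM complex, differed by -0.02 (SE 0.06) and -0.05 (SE 0.09). Of the MuvB core, which DREAM shares with the activating MYB complex, 4 measured genes were among the 48. Rbbp4, another gene of that core, belongs to a separate list of pathway genes and differed by 0.04 (SE 0.06). Lin52 read 9.62, 9.56 and 9.39 on control and 9.39, 9.54, 9.45 and 9.49 on deletion arrays, a difference of -0.05 (SE 0.08), with overlapping groups and the smallest unadjusted limma p of the pocket protein and MuvB genes at 0.524. Lin54, the subunit that contacts CHR elements, differed by -0.04 (SE 0.08), Lin37 by 0.0058 (SE 0.07) and Lin9 by -0.0003 (SE 0.07). Of the 7 pocket protein and MuvB genes among the 48, 6 were lower, by at most 0.05.

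Phosphatases of the CDC25 family remove the phosphate that WEE1 adds. Cdc25a differed by 0.02 (SE 0.08) and Cdc25c by -0.0031 (SE 0.06). Cdc25b read 6.59 to 7.11 on control and 6.59 to 6.89 on deletion arrays, with control replicate 3 highest, and its difference turned from -0.05 (SE 0.13) to 0.11 without that array. Of the CDKs that act in transcription, the CDK-activating kinase genes Cdk7 and Ccnh differed by 0.01 (SE 0.07) and -0.03 (SE 0.06). The Mediator kinase genes Cdk8 and Ccnc differed by 0.08 (SE 0.08) and 0.0028 (SE 0.07), and those of the elongation kinase P-TEFb, Cdk9 and Ccnt1, by 0.02 (SE 0.06) and -0.03 (SE 0.06). Cdk12 and Cdk13, the partners of cyclin K, differed by -0.03 (SE 0.08) and 0.0037 (SE 0.07), beside 0.15 for Ccnk. Cdk5, which is best known from neurons, differed by 0.08 (SE 0.08). Over these 10 transcriptional and other genes the median was 0.0074, and 7 were higher.

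Over the 48 genes the median size of the difference between groups was 0.03, beside a median SE of 0.07. The median pooled SD of single arrays within groups was 0.06. The median range over all 7 arrays was 0.18, and 45 genes stayed within a range of 0.5. Within the deletion group, replicate 4 gave the lowest value for 19 genes and replicate 3 the highest for 19, and the median deviation from the control mean was -0.02 on the former and 0.04 on the latter. Among controls, replicate 2 was lowest for 19 genes and replicate 1 highest for 21. By role, the median deviation of the 6 S phase and mitosis genes was 0.04, 0.05, 0.04 and 0.04 on the deletion arrays and 0.03, -0.02 and -0.0066 on the control arrays. For the 6 inhibitor genes it was -0.02, -0.04, -0.05 and -0.04 on the deletion arrays and 0.02, -0.05 and 0.04 on the control arrays, where control replicate 2 lay among the deletion arrays. The heat map shows the largest deviations for single genes. For Cdkn3 the largest was on deletion replicate 4 and for Cdc25b on control replicate 3, while E2f6 deviated on several arrays of both groups.

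**Figure D4:**
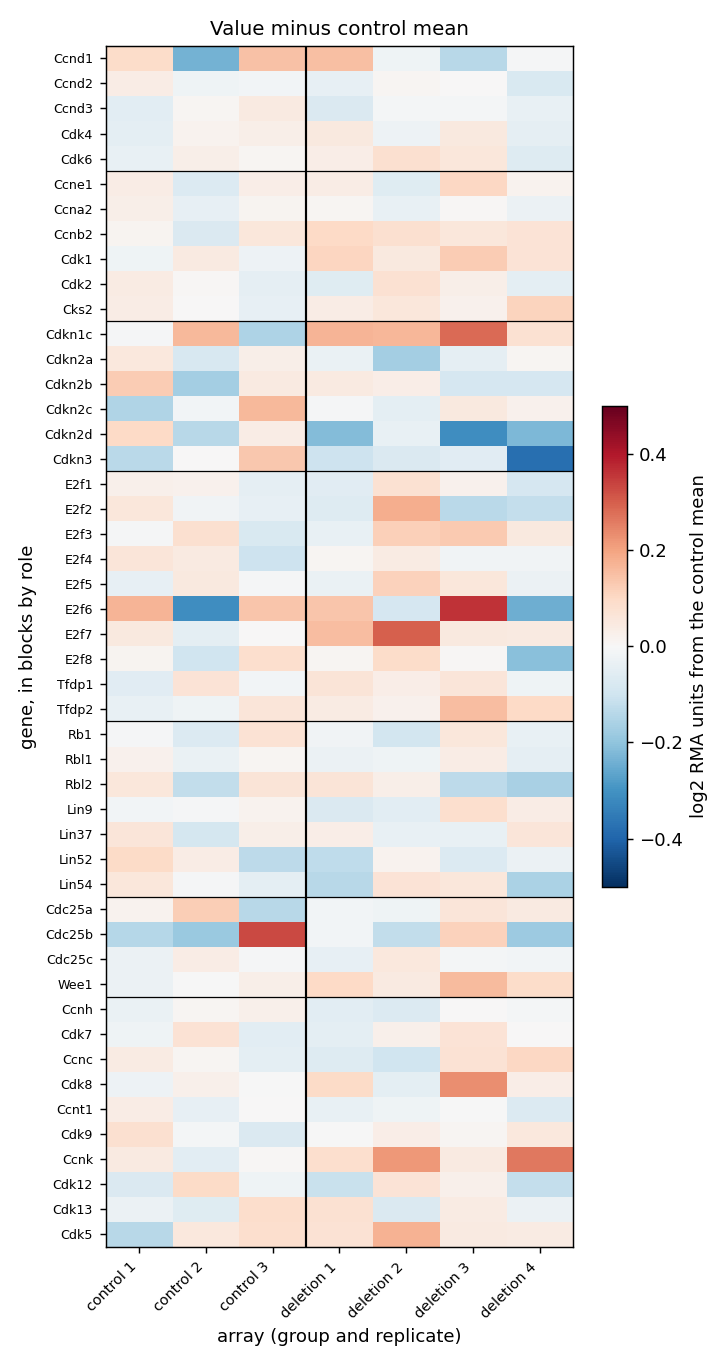
Value on each array minus the mean of the 3 control arrays, in log2 RMA units, for the 48 measured genes (rows, in blocks by role) on 3 control and 4 deletion arrays (columns, divided by the vertical line). The colour scale runs from -0.5 to 0.5. The deepest colours belong to single genes, with E2f6 spanning the widest range, from 8.49 to 9.17, and Cdkn3 at 7.96 on deletion replicate 4 against a control mean of 8.33.

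The other genes of the pathway were taken from 5 lists with 129 measured genes of 141. Among the other cyclins, CDKs and partners, 0 of 30 passed in limma, and for 2 the unadjusted p was under 0.05, where 4.61% of all genes had such a p. Ccng2, an atypical cyclin of cell cycle exit, read 7.29, 7.46 and 7.25 on control and 6.89, 6.58, 5.57 and 6.81 on deletion arrays, a difference of -0.87 (SE 0.29, limma adjusted p = 0.999), and deletion replicate 3 lay far below the rest. Cdk2ap1, whose product binds CDK2, read 9.73, 9.87 and 9.68 on control and 9.89, 9.94, 10.03 and 9.96 on deletion arrays, a difference of 0.20 (SE 0.07, limma adjusted p = 0.999). The groups did not overlap for these 2 genes and for Cdk19, a Mediator kinase gene with a difference of -0.13 (SE 0.07), where 5.19% of all genes did not overlap. The list's median was -0.0008, with 15 genes higher and 15 lower.

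Of the 11 measured genes for CDK inhibitors outside the 48 and for p27 turnover, Cdkn1b alone passed. Skp2, which recruits p27 for degradation, differed by -0.02 (SE 0.07), and its cofactor Cks1b, counted among the other cyclins, CDKs and partners, by -0.02 (SE 0.06). Over the 9 DREAM and MuvB partners and related regulators the median was -0.03, with 7 lower, where 52.2% of all genes were higher. Foxm1, a transcription factor of mitotic genes, had the smallest unadjusted limma p there at 0.263, with a difference of -0.08 (SE 0.07).

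Of the 45 measured E2F targets of S phase, 38 were higher, where 52.2% of all genes were, with a median of 0.03. Of these targets 0 had an unadjusted limma p under 0.05, where 4.61% of all genes did. The groups did not overlap for 2 of them, both higher, where 5.19% of all genes did not overlap. Cdca7, a MYC and E2F target, had the smallest unadjusted limma p at 0.129 with a difference of 0.12 (SE 0.07). The list's median deviation from the control mean was 0.01 to 0.05 on the deletion arrays and -0.02, 0.05 and -0.03 on control replicates 1 to 3, so control replicate 2 lay inside the deletion range. Of the 34 measured mitotic genes bound by DREAM, 22 were higher, with a median of 0.01. The groups did not overlap for 3 of these, 2 higher and 1 lower. Cdca8, a subunit of the chromosomal passenger complex, had the smallest unadjusted limma p there at 0.089 with a difference of 0.12 (SE 0.06). In both lists 0 genes passed over all genes.

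**Figure D5:**
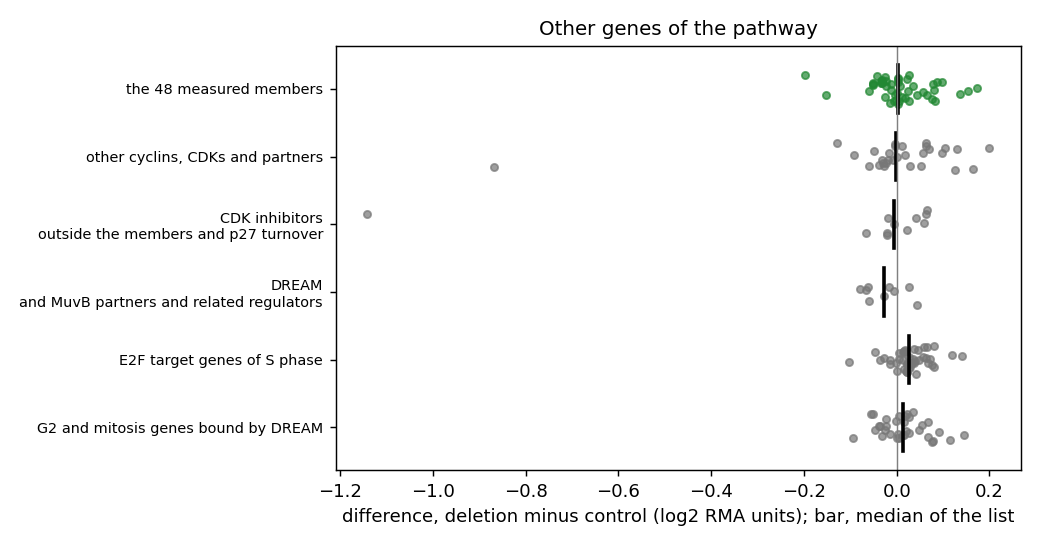
Difference between deletion and control arrays, in log2 RMA units, for the 48 measured genes and for the genes of 5 other pathway lists (points, spread vertically for clarity; 3 control and 4 deletion arrays), with the median of each list as a bar. The 2 points far to the left are Cdkn1b at -1.14 and Ccng2 at -0.87, and the list medians lie between -0.03 and 0.03.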

How the data were processed

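Biotin-labelled cDNA from total RNA was hybridised to 7 Mouse Gene 2.0 ST arrays. Per the submitters' processing notes, the authors used RMA within Affymetrix Expression Console, and what they deposited is on the log2 scale, as its values (1.87 to 14.01) show. RMA corrects background, gives the arrays a common distribution and summarises probes. The sources used here give neither software version nor build. RMA gives no detection call, and the number of arrays limits the precision.

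Of 41345 probesets, 23521 had exactly 1 symbol in the platform annotation, 1814 had several and 16010 were not listed. The test on single-symbol probesets was limma 3.58.1 under R 4.3.3 (lmFit and eBayes, both groups in a single fit, no covariate or filter, two-sided, Benjamini-Hochberg over 23521 probesets, threshold 0.05). Differences are deletion minus control with 95% intervals. All 48 measured genes had an equal symbol in the gene table of GRCm38.p6. The fit and the motif search were tested on simulated data.

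The genes and lists were chosen with earlier results of these data known. The rule for naming gave every listed gene its difference. It gave values on every array for the CDK inhibitors, the D cyclins with their kinases, genes with an unadjusted p under 0.05 or without overlap between groups, and the smallest p of each role. Of other lists it named up to 4 genes with an unadjusted p under 0.05 or, with none, the smallest. Cdkn1a, Rbbp4, Skp2, Cks1b, Cdk19, the marker genes and the genes named for their spread were picked once their values had been seen. The replicate numbers of the titles did not pair the arrays, with correlations of same-numbered deviations of 0.02, 0.06 and -0.10. The sample descriptions number the deletion arrays 1 higher than the titles, and by those numbers the 2 shared pairs correlated at -0.17 and -0.10.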

Additional observations from a re-analysis of the deposited data

Results flagged for a closer look

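Of 56 genes checked on the 4 deletion arrays, 2 had an array set apart from the other 3 by Dixon's ratio of the gap to the whole range, which chance alone passes for about 1 in 20 groups. Cdkn3 read 7.96 on deletion replicate 4 and 8.23 to 8.28 on the others, a ratio of 0.857. Lockd read 4.17 on deletion replicate 3 and 5.09 to 5.15 on the others, a ratio of 0.939.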

How the results depend on the processing

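Under 15 alternatives (all probesets tested, a filter for values over 5 on 3 arrays, array medians subtracted, another quantile normalization, a trended robust prior, array weights, the mean of a gene's probesets, each array left out, and a replicate block) 0 of the 48 genes passed in limma. Genes at an unadjusted p under 0.05 numbered 2 with the trended robust prior (Cdkn2d and Ccnk), 1 with array weights (Cdkn2d) and 0 to 2 with an array left out. Of all genes, 4.36%, 4.94% and 3.63% to 7.14% had such a p in these settings. Groups that did not overlap numbered 1 after another quantile normalization, where 5.43% of all genes did not overlap. With an array left out they numbered 4 to 10. The 10 came without control replicate 1 or 2, where 12.0% and 14.3% of all genes did not overlap. Over all genes that share was 5.19% with all 7 arrays and 8.09% to 15% with an array left out. Leaving out an array can only keep or raise such a count. The median difference ran from -0.0077 to 0.0108 with an array left out. Cdkn1b kept a difference of -1.14 with all probesets tested, but had an adjusted p of 0.141, the cause of which was not tested, and it ran from -1.21 to -1.08 with an array left out. With the replicate block, under which deletion replicate 4 carries no weight, its difference was -1.14 with an adjusted p of 0.680, and the numbers did not pair the arrays. Signs changed for 0 to 11 of the 48 genes per alternative, none of them further than 0.0503 from 0 in the reported fit. Signal near background limits the dimmest genes.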
